A study of Mus musculus with 3 samples.

Results

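Notch receptors and their ligands were followed in cultured neural precursors of the postnatal mouse brain. The family was taken as 10 genes: the 4 receptors Notch1, Notch2, Notch3 and Notch4, the Delta ligands Dll1, Dll3 and Dll4, the Jagged ligands Jag1 and Jag2, and Dner, a related membrane protein with EGF repeats. Each was found among the probe sets that carry a single gene symbol, so that 10 of the 22180 genes measured on the arrays belong to the family. Dll1 had 2 such probe sets, of which the brighter stands for the gene, and every other member had 1.

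The series holds 3 arrays of 1 group, numbered 1 to 3 here. Each was hybridised with total RNA of neurospheres, floating colonies grown from dissociated cells of the V-SVZ, the ventricular-subventricular zone, where stem cells persist beside the lateral ventricles. The mice were wild-type CD1 pups at postnatal day 8 (the growth protocol gives day 7 or 8), and all cultures were kept for 7 days in medium with 20 ng/ml EGF and 10 ng/ml FGF after plating at 10 cells per microlitre. The series is named for the translational regulator 4E-T, but the arrays include no altered genotype, no treatment and no uncultured tissue, so the data answer which members gave signal in these cultures and how far the arrays differed. Pups were cultured separately, but the labels do not say if an array stands for a single pup. The p-values therefore rest on array-to-array spread alone, pooled over genes of like signal, and that spread may be technical.

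Notch signalling passes between touching cells. A Delta or Jagged protein on one cell binds a Notch receptor on the next, proteases release the intracellular part of the receptor, and this fragment joins the DNA-binding protein RBPJ in the nucleus to switch on repressor genes such as Hes5. In the V-SVZ the pathway is known to maintain stem cells, while their more committed progeny carry Delta ligands.

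Signals are log2 values made by the authors with RMA (background correction, normalisation between arrays and a summary over the probes of a set). With no second group, each gene was compared with a reference level for unspecific signal. For this level, the 95th percentile over 1405 olfactory and vomeronasal receptor probe sets was taken on each array, since these are genes of the nose. It lay at 5.63, 5.53 and 5.71 on arrays 1, 2 and 3. The margin is the log2 signal minus that level. A gene counted as above the level when its adjusted p in limma's one-sided moderated test (Benjamini-Hochberg over all genes) was under 0.05. Probes bind with different strength, so no ranking of the members by level was made.

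The cultures carried the markers of the labelled cell type. All 11 measured neural stem cell markers were above the level, among them Sox2 at 11.39 ± 0.073 (SD, n = 3) and Nes at 8.50 ± 0.035, and so were all 6 oligodendrocyte precursor markers. Of the neuron markers 6 of 11 were above, of the ependymal markers 3 of 7 and of the microglia markers 4 of 8. Of all genes 59.1% were above. Exactly equal values on 2 or 3 arrays occurred for 75% of all genes and for 6 of the 10 members, so that an SD of 0 or close to it understates the true spread. In bulk RNA, fewer cells of a type and less RNA per cell cannot be told apart.

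Of the 10 members, 9 were above the reference level, against 59.1% of all genes tested. Dll4 was the exception. The median margin of the 10 members was 3.44 and that of all genes 0.76. The same 9 members exceeded the level on each of the 3 arrays, as did 59.6% of all genes.

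**Figure D1:**
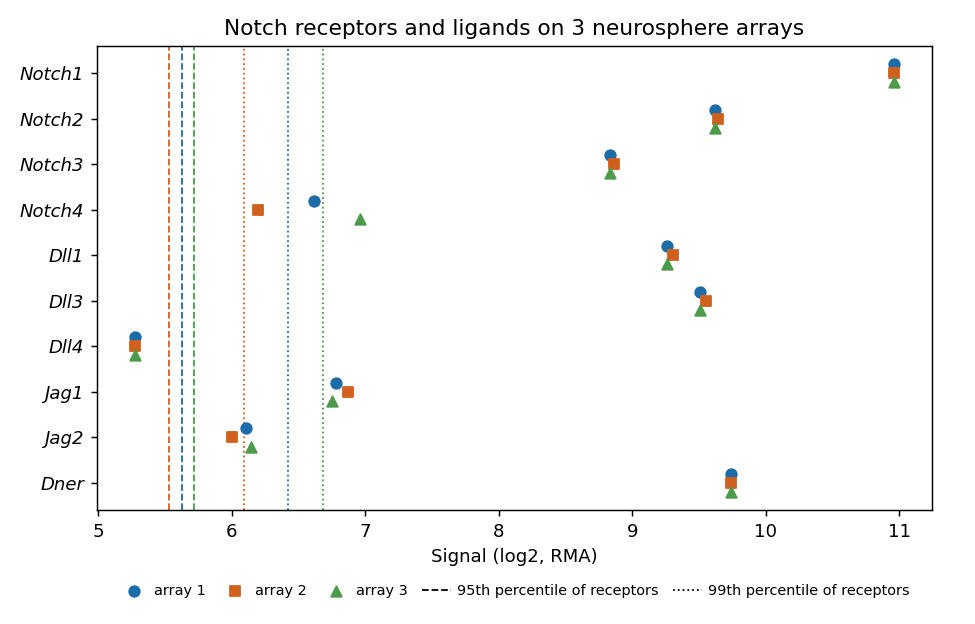
Signal of each Notch receptor and ligand (log2, x axis) on arrays 1, 2 and 3, with 1 point per array. Dashed and dotted lines mark the 95th and 99th percentiles of the receptor probe sets on each array. Notch1, Notch2, Notch3, Dll1, Dll3 and Dner lie right of every line, Dll4 lies left of the dashed lines, and the 3 points of Notch4 spread from 6.20 to 6.96.

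Of the Delta ligands Dll1 and Dll3 were above the level and Dll4 was not, and the sequences before their starts are shown for that reason. Each run below is the 250 bases upstream of a RefSeq start (GRCm38.p6), 5′ to 3′ on the strand of the gene. Of the 2 Dll1 starts, which lie 1109 bases apart, the upstream one is given. Capitals mark the E-boxes CAGCTG and CAGGTG (the second also as CACCTG, its other strand), elements that bHLH proneural factors can bind.
Dll1, chr17:15376933-15377182, minus strand: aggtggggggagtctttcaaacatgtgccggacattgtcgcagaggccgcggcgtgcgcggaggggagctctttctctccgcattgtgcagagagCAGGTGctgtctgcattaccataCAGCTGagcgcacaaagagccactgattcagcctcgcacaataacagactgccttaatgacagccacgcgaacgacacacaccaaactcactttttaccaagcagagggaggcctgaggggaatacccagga
Dll3, chr7:28301786-28302035, minus strand: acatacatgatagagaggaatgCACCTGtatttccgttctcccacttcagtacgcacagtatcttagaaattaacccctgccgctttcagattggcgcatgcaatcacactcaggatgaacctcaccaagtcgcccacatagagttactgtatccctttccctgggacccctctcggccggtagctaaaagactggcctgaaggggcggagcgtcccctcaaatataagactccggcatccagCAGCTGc
Dll4, chr2:119325534-119325783, plus strand: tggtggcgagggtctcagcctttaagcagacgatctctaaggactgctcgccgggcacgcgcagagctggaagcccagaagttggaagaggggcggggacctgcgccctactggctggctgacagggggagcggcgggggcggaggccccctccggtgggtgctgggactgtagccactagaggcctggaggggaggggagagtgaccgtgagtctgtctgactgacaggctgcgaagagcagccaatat
The Dll1 and Dll3 windows each held both E-boxes, a combination found in 2.48% of the 32851 windows of the same length in the RefSeq table, and the Dll4 window held neither, nor did that of the downstream Dll1 start. In Dll1 the elements began 155 and 132 bases before the start, and in Dll3 they began 228 and 7 bases before it. CAGCTG alone was in 13% of all windows and CAGGTG in 17.2%, counted on both strands. These matches describe letters and are not shown to be binding sites.

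All 10 members matched the RefSeq promoter table, with 11 windows in all. Of the other members, Jag1 alone held an E-box, CAGCTG, which began 82 bases before its start. The RBPJ core TGGGAA, searched on both strands and with no overlap with the E-boxes, was in 21.6% of all windows and in 0 of the 11 member windows. The count of CG dinucleotides was over the median of all windows (6) in 10 of the 11, with Notch4 at 4 below it and Jag2 at 54 the highest of the family. The G and C content of the Jag2 window was 87.2% and that of the Notch4 window 58.4%, against a median of 52.4% over all windows.

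Among the receptors, Notch1, the receptor best known for holding neural stem cells undifferentiated, had a signal of 10.96 on each of the 3 arrays. The 3 values were identical, and the margin over the reference level was 5.34 ± 0.090 (SD, n = 3), whose spread comes only from the level itself. Notch2, a receptor with a known role in stem cell quiescence in the adult V-SVZ, had 9.62, 9.64 and 9.62 on arrays 1, 2 and 3, with a margin of 4.00 ± 0.099. Notch3 had 8.83, 8.87 and 8.83 and a margin of 3.22 ± 0.11. On every array a single receptor probe set out of 1405 reached the signal of Notch1, Notch2 or Notch3, and the calls of the 3 genes held under each alternative tried.

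Notch3 is also a textbook gene of mural cells, the pericytes and smooth muscle cells around vessels, and stands in the mural marker list. Of the 10 genes of that list 6 (60%) were above the reference level, counting Notch3 itself, against 59.1% of all genes. Pdgfrb had 6.95, 7.11 and 6.91 on arrays 1, 2 and 3, Rgs5 had 7.32, 7.32 and 7.11, and Acta2 had 7.45, 7.44 and 7.45. Rgs5 alone in the list has 2 probe sets, and the brighter is given. With the probe set of lowest mean for each gene, the count above was 5. The smooth muscle genes Myh11 (5.97 ± 0.094) and Tagln (5.82) were also above, with margins of 0.34 and 0.20. The pericyte channel genes Abcc9 (5.72 ± 0.054) and Kcnj8 (4.89 ± 0.28) were not above, nor were Anpep and Vtn. Of these, Abcc9 exceeded the level on all 3 arrays without being called (limma adjusted p = 0.186). The mean log2 signal over the list was 6.34, 6.31 and 6.38 on the 3 arrays. The part of mural cells in the Notch3 signal was not tested.

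Notch4, a receptor best known from endothelial cells, differed most between the arrays. It had 6.61 on array 1, 6.20 on array 2 and 6.96 on array 3. Array 3 was highest and array 2 lowest, and the signal exceeded the level on all 3 with a margin of 0.97 ± 0.29. The limma adjusted p of 2.37e-31 comes from a spread shared by genes of like signal, not from that of Notch4 itself. Its range of 0.77 was wider than that of 98.1% of the 2571 genes with a mean within 0.5 log2 units of its own. With the 99th percentile of the receptors as the level, at 6.42, 6.09 and 6.69, Notch4 still exceeded it on each array, by 0.19 ± 0.087, but was no longer called (limma adjusted p = 0.385).

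Endothelial markers were mostly at the reference level or under it. Of 12 markers, 3 were above, against 59.1% of all genes: Kdr (6.84 ± 0.064), Sox17 (5.87 ± 0.20) and Egfl7 (5.83 ± 0.011). Sox17 and Egfl7 had margins of 0.24 and 0.20, and without array 1 the count above was 1. The defining genes Pecam1 (5.30), Cdh5 (5.48 ± 0.058) and Cldn5 (5.11) were not above, and neither were Flt1, Tek, Tie1, Emcn and Esam. The mean log2 signal over the list was 5.36, 5.34 and 5.37 on arrays 1, 2 and 3. The part of endothelial cells in the Notch4 signal was not tested.

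The order of the arrays in Notch4 was shared by other dim genes. The comparison and its limits of 7 and 8 were chosen after the data were seen. Of the 2929 genes with 3 different values and a mean under 7, 58.7% were lowest on array 2 and highest on array 3, as Notch4 and Jag2 were. Of the 1734 such genes with a mean of 8 or more, 3.11% had that order and 76.2% the reverse, lowest on array 3 and highest on array 2. The reference level itself was lowest on array 2 and highest on array 3. Whether this shared order accounts for the spread of Notch4 was not tested.

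**Figure D2:**
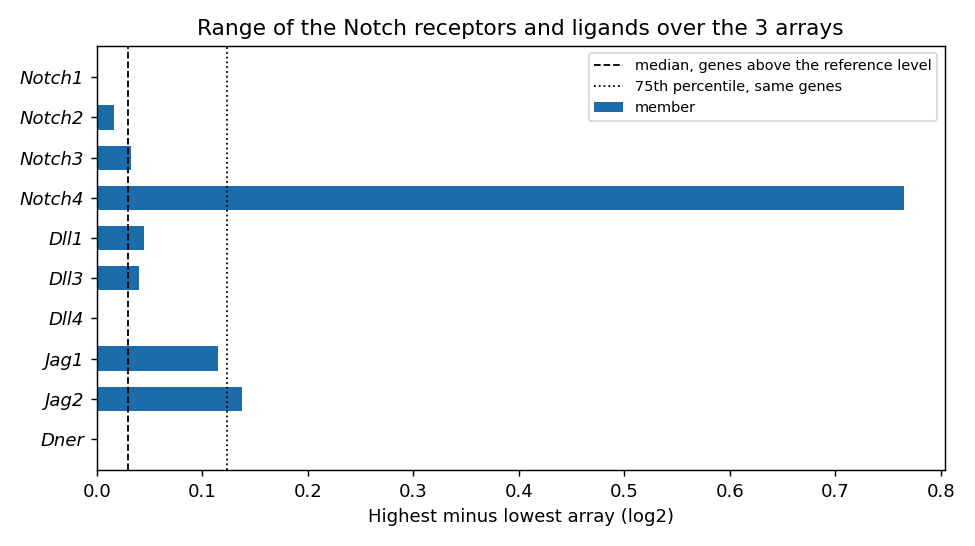
Range of each Notch receptor and ligand over the arrays (highest minus lowest log2 signal, bars from 0). The dashed and dotted lines mark the median (0.030) and the 75th percentile (0.12) of the range over the genes above the reference level. Notch4, at 0.77, extends far past both lines, and Notch1, Dll4 and Dner have a range of 0.

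The Delta ligands Dll1 and Dll3 gave clear signal. Dll1, the main activating ligand of neural progenitors, had 9.26, 9.31 and 9.26 on arrays 1, 2 and 3 and a margin of 3.65 ± 0.11 (SD, n = 3). Its dimmer probe set had 6.40 on each array, a margin of 0.78, and was still over the level on all 3. Dll3, a divergent Delta protein that acts mainly inside the cell, had 9.51, 9.55 and 9.51 and a margin of 3.90 ± 0.11. Both genes were highest on array 2, with ranges of 0.045 and 0.040.

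Dll4, the Delta ligand of sprouting vessels, had 5.27 on each array. This was under the reference level on all 3, with a margin of -0.35 ± 0.090 (limma adjusted p = 1), and 139, 116 and 146 of the 1405 receptor probe sets reached its signal on arrays 1, 2 and 3. A further probe set carries the symbols of both Dll4 and Gm14207 and was not counted for either gene. It had 5.91, 5.36 and 6.10, over the level on arrays 1 and 3 and under it on array 2. With the 90th percentile of the receptors as the level, the margin of Dll4 was 0.0053 and the gene was not called either.

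Both Jagged ligands were above the reference level but lost their calls under stricter levels. Jag1, a ligand expressed by stem cells and niche cells of the V-SVZ, had 6.78, 6.87 and 6.75 on arrays 1, 2 and 3. All 3 values were over the level, with a margin of 1.18 ± 0.15 (limma adjusted p = 9.99e-44), and 5, 3 and 11 receptor probe sets reached its signal. Jag2 had 6.11, 6.00 and 6.14, a margin of 0.46 ± 0.027 (limma adjusted p = 4.93e-09), and 30, 19 and 39 receptor probe sets reached it. Neither was called with the 99th percentile as the level. The margin of Jag1 was then 0.40 ± 0.36, over the level on each array (limma adjusted p = 0.0716), and that of Jag2 was -0.32 ± 0.23, under it on each array.

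Dner, an EGF-repeat protein of neurons that has been described as a Notch ligand for glia, had 9.74 on each array and a margin of 4.12 ± 0.090. The neuron markers above the level were Rbfox3 (7.01), Snap25 (8.57), Syt1 (6.34), Map2 (11.98 ± 0.0061), Gad1 (6.74 ± 0.063) and Gad2 (7.76 ± 0.071). Those not above were the glutamate transporter genes Slc17a7 (5.13 ± 0.16) and Slc17a6 (5.19 ± 0.11), the neurofilament genes Nefl (5.58 ± 0.036) and Nefm (5.31 ± 0.011), and Calb1 (4.66 ± 0.066), a marker of Purkinje cells among others. The mean log2 signal over the neuron list was 6.75, 6.74 and 6.77 on the 3 arrays. The part of neurons in the Dner signal was not tested.

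**Figure D3:**
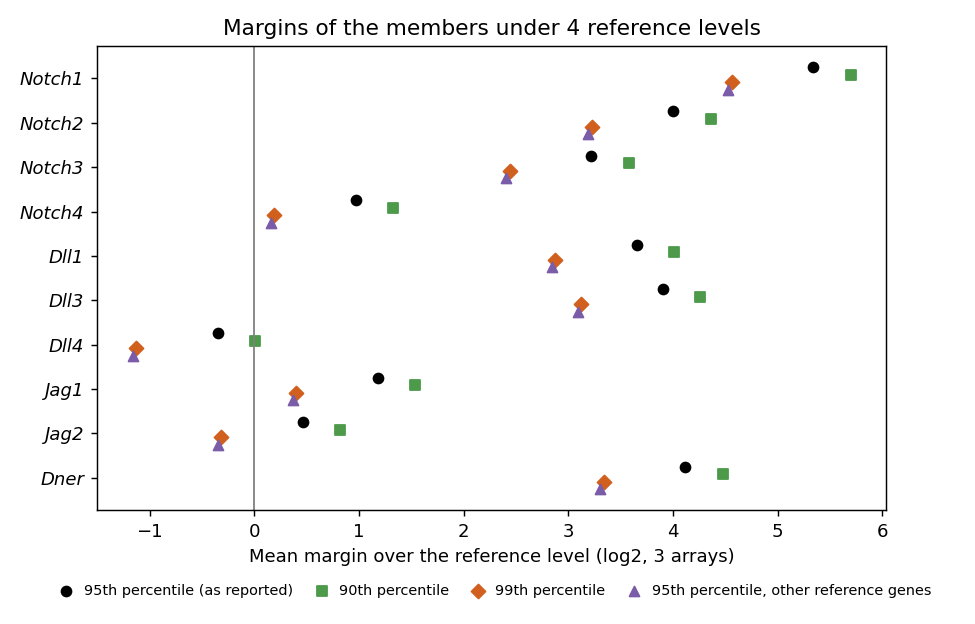
Mean margin of each Notch receptor and ligand over 4 reference levels (log2, 3 arrays): the 95th, 90th and 99th percentiles of the olfactory and vomeronasal receptors, and the 95th percentile of keratin-associated protein, defensin and bitter taste receptor probe sets. Notch1, Notch2, Notch3, Dll1, Dll3 and Dner stay right of 0 under all 4, and Jag2 crosses 0 under the 99th percentile and under the other reference genes.

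Stricter levels separated 6 members from the others. With the 99th percentile, 6 of the 10 members were above, against 44.9% of all genes. With the other reference genes it was again 6 of the 10, against 9658 of all 22180 genes. Over the 99th percentile on each of the 3 arrays, without a test, were 8 of the 10 members and 46.6% of all genes. With the 99th percentile, and likewise with the other reference genes, Notch4, Jag1 and Jag2 lost their calls and Notch1, Notch2, Notch3, Dll1, Dll3 and Dner were called. With the 90th percentile, 9 of the 10 members were above, against 66.7% of all genes.

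The rest of the pathway was taken from lists of genes by role. In the 5 lists of the machinery between ligand and nucleus, 42 of 42 measured genes were above the level, against 59.1% of all genes. Their median margin was 3.43. With the 99th percentile as the level, all 6 genes of receptor processing and all 10 of receptor turnover stayed above. Ligand endocytosis then had 5 of 7, receptor cleavage 7 of 8 and the nuclear complex 9 of 11, against 44.9% of all genes. With the other reference genes, receptor processing had 5 of 6, receptor turnover 10 of 10 and ligand endocytosis 5 of 7. Receptor cleavage had 6 of 8 and the nuclear complex 9 of 11, and 9658 of all 22180 genes were above. Among 6 genes that process the receptor on its way to the surface were the fucosyltransferase gene Pofut1 (6.96), the glucosyltransferase gene Poglut1 (10.58 ± 0.0060) and the fringe genes Lfng (10.41 ± 0.025), Mfng (7.56 ± 0.030) and Rfng (7.22 ± 0.066), whose products lengthen the fucose on Notch and so shift its preference between Delta and Jagged ligands. The convertase gene Furin had 8.63.

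All 7 genes of ligand endocytosis, the pull on the ligand that exposes the receptor to cleavage, were above. They include the ubiquitin ligase genes Mib1 (10.21) and Mib2 (7.31 ± 0.047), the epsin genes Epn1 (9.19) and Epn2 (8.87), and Neurl1a (5.98) and Neurl1b (6.30 ± 0.15), which had margins of 0.35 and 0.68. The dynamin gene Dnm2 had 10.41. All 8 measured genes of receptor cleavage were above as well. Adam10, which makes the first cut after ligand binding, had 10.54, and the related Adam17 had 9.64 ± 0.074. The presenilin gene Psen2 had 6.44, and the gamma-secretase genes Ncstn (10.00), Aph1a (11.52 ± 0.028) and Psenen (12.41) encode parts of the enzyme that makes the last cut. Aph1b (7.62 ± 0.028) and Aph1c (6.84 ± 0.045) are near-identical copies, and their probes may bind the transcripts of both.

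In the nuclear complex 11 of 11 measured genes were above the level. Rbpj had 10.28, 10.18 and 10.11 on arrays 1, 2 and 3 on its brighter probe set, and the dimmer probe set of the gene was under the level. The coactivator genes Maml1 (7.39 ± 0.062), Maml2 (11.52) and Maml3 (6.06) were above, Maml3 with a margin of 0.43, as were the acetyltransferase gene Ep300 (10.40) and the corepressor gene Spen (9.61). Snw1 (9.20 ± 0.014) and the acetyltransferase gene Kat2b (8.16 ± 0.027) were above too. All 10 measured genes of receptor turnover were above, including the Notch antagonist genes Numb (8.07, 8.11 and 7.93) and Numbl (8.59 on each array), and the ubiquitin ligase genes Itch (9.84 ± 0.022), Fbxw7 (7.63 ± 0.11) and Nedd4 (12.57). The Deltex genes Dtx1 (9.21), Dtx2 (7.10) and Dtx3 (8.81) were above as well.

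Genes known as Notch targets were above in 9 of 9 cases, against 59.1% of all genes. With the 99th percentile as the level it was 7 of 9, against 44.9% of all genes. With the other reference genes it was 6 of 9, against 9658 of all 22180 genes. Hes5, a repressor of neuronal differentiation, had 11.07 on each array, and the related Hey1 had 11.10, 11.13 and 11.13. Hey2 had 8.66 ± 0.0061, Hes7, known from the segmentation clock, had 6.94, and the glial filament gene Gfap had 12.91. Hes1 (6.78 ± 0.082) and Heyl (6.52 ± 0.054) had smaller margins of 1.15 and 0.90, and the feedback inhibitor gene Nrarp had 8.40, 8.59 and 8.32. Several of these genes are also driven by other signals, so their levels do not measure Notch activity.

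**Figure D4:**
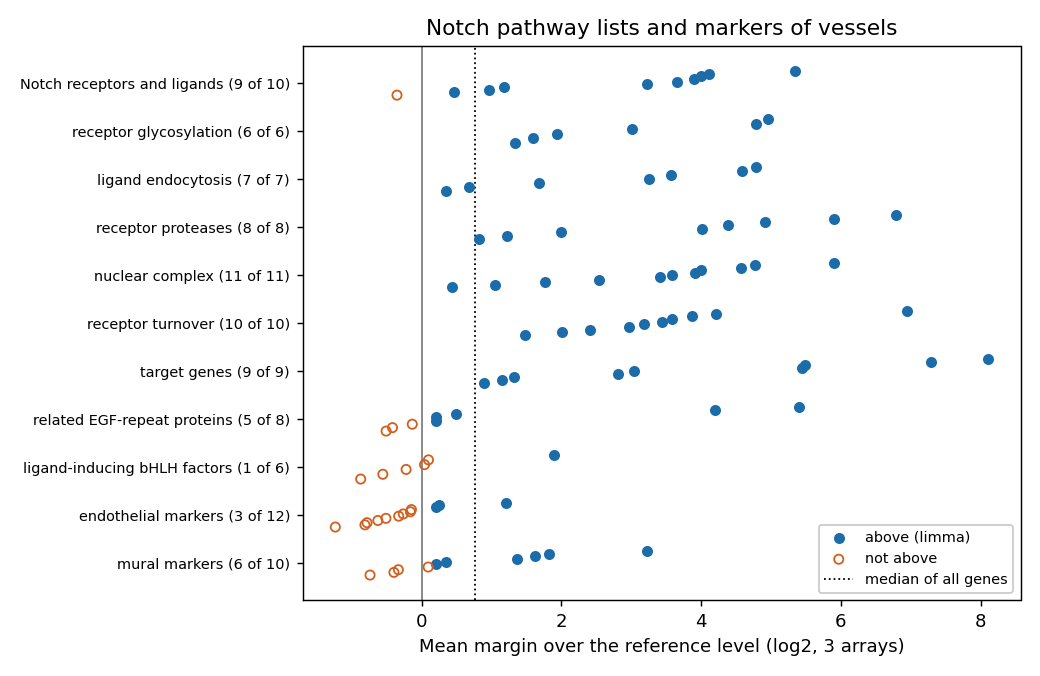
Mean margin over the reference level (log2, 3 arrays) of each gene in 11 lists, with 1 point per gene and, beside each list name, the number above out of the number measured. The dotted line is the median of all genes at 0.76. The machinery and target lists hold no open point, while the endothelial list holds 9.

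Proneural bHLH factors, which can switch on Delta ligands, were above in 1 of 6 measured cases, against 59.1% of all genes. Neurog2 had 7.46, 7.62 and 7.49 on arrays 1, 2 and 3. Neurog1, Neurog3, Atoh1, Neurod1 and Neurod4 were not above, and Atoh1 and Neurod4 exceeded the level on 2 of the 3 arrays. Without array 3 the count was 2.

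Related EGF-repeat and non-classical ligand genes were above in 5 of 8 measured cases (62.5%), against 59.1% of all genes. The adhesion protein gene Cntn1 had 11.03 ± 0.0087 and the microfibril gene Mfap2 had 9.82 ± 0.0011. The Delta-like genes Dlk1 (5.83) and Dlk2 (6.12 ± 0.18), whose products lack the receptor-binding domain of Delta proteins, and Egfl7 (5.83 ± 0.011) had margins between 0.20 and 0.50. Cntn6, Mfap5 and Ccn3 were not above. Without array 1 the count was 3, and with the 99th percentile as the level it was 2, against 44.9% of all genes at that percentile.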

How the data were processed

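The values are log2 signals of 41345 probe sets on 3 arrays deposited by the authors, which the submitters' processing notes credit to RMA. No version or options of RMA are named in the sources used here. That they are on the log2 scale was read from their range.

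Genes were named from the array's platform annotation: 23521 probe sets carried 1 symbol, 1814 several and 16010 none. Where a gene had several (1082 genes), the probe set with the highest mean over the arrays was taken. The detection test (R 4.3.3, limma 3.58.1, an intercept, eBayes with an intensity trend) was fitted on all 22180 genes. It was also run on simulated data with independent noise, the same SD for every gene and a fixed level. The simulation held neither equal values nor shifts between arrays, so it cannot give the error rate of the test here. In the fit to the data the prior degrees of freedom were infinite, so all p-values rest on a spread shared by genes of like signal. The smallest margin called was 0.15. The number of arrays limits the precision.

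The members and the 19 gene lists were chosen with earlier results of these data known. Of 143 listed genes, 136 were measured and 7 were not analysed here. All 10 members are named, and of the pathway, vessel and neuron lists up to 8 genes above and 8 not above, in the order written. The other 4 marker lists are given as counts, with Sox2 and Nes picked as examples after their values were seen. No gene was matched to a member by pattern, since 3 arrays of 1 group hold none. The 13 alternatives changed the level, the reference genes (142 probe sets), the probe set, the scaling, the model, the filter and the arrays used. Figures were drawn with matplotlib 3.10.9.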

Additional observations from a re-analysis of the deposited data

How the results depend on the processing

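The count of 9 members above the level was 9 under 11 of the 13 alternatives and 6 with the 99th percentile or the other reference genes. In these 2 settings Jag2 had margins of -0.32 and -0.35, Notch4 of 0.19 and 0.15 (limma adjusted p = 0.385 and 0.567), and Jag1 of 0.40 and 0.37 (limma adjusted p = 0.0716 and 0.175), all 3 without a call. The 99th percentile is higher than the 95th by construction. That the other reference genes also gave a higher level was observed: it lay at 6.40, 6.11 and 6.81 on arrays 1, 2 and 3. Under both, the counts above were 2 related EGF-repeat genes, 0 endothelial markers and 0 microglia markers, against 5, 3 and 4 as reported. Of all 22180 genes, 9966 were above with the 99th percentile and 9658 with the other reference genes, against 13104 as reported. With the 90th percentile the counts above were 4 bHLH factors, 5 endothelial and 6 ependymal markers, against 66.7% of all genes. Leaving out each array in turn gave 3 to 5 related EGF-repeat genes, 1 to 3 endothelial markers and 1 to 2 bHLH factors, and the low counts of the first 2 lists came without array 1. Dll4 was not called under any of the 13. No paired analysis was possible because there is 1 group. The ranges of members with equal values moved with scaling: centring on the median gave Notch1, Dll4 and Dner 0.026 each.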

Other observations

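The arrays differed in a way that depended on the signal. Among the genes with 3 different values, 47.1% of 5534 were lowest on array 3 and highest on array 2, as Jag1 was, and 32.9% showed the reverse order, as Notch4 and Jag2 did. The probe set shared by Dll4 and Gm14207, at 5.91, 5.36 and 6.10, and the mean of the microglia markers, at 5.68, 5.58 and 5.76, were also lowest on array 2 and highest on array 3. The means of the endothelial, mural, ependymal and neuron markers had that order too. Those of the neural stem cell and oligodendrocyte precursor markers were instead highest on array 2. The 99th percentile of the olfactory and vomeronasal receptors was lowest on array 2 and highest on array 3, with a spread from 6.09 to 6.69. The median of these receptors was 3.81, 3.82 and 3.83 on arrays 1, 2 and 3.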
